A study of Capra hircus with 13 samples.

Results

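The genes described here are named as histone methylases and demethylases of the goat (*Capra hircus*), the enzymes that place and remove methyl groups on the lysines and arginines of histones. They were chosen by name alone, as every gene symbol in the expression tables that begins with *KDM1* to *KDM8*, *KMT2*, *KMT5*, *SETD*, *SUV39H* or *PRMT* and a digit, together with *EHMT1*, *EHMT2*, *EZH1* and *EZH2*. This gave 50 genes, counted by their names as 33 methyltransferases and 17 demethylases, of the 18146 gene names listed in all 5 tables. A name does not show that the protein acts on histones. *PRMT3*, described below, acts on a ribosomal protein, and the substrate of *SETD9* is poorly known. RNA-seq values came from 13 libraries. Untreated material gave 3 libraries each of MII oocytes, which are mature and arrested in meiosis until fertilization, of 4-cell and of 8-cell stage embryos. The other 4 libraries are 8-cell stage embryos injected as zygotes 8 h after *in vitro* fertilization, 2 with a negative control siRNA (NC by their treatment label, although their titles read WT) and 2 with 20 µM *YTHDF2* siRNA. All injected embryos were thus injected, fertilized and cultured *in vitro*, and each of these libraries pooled 15 embryos. The untreated libraries come from 2 earlier studies, and which library belongs to which study is not given in the sources used here, so study and stage cannot be told apart. Breed and age of the animals are not given either, nor are separate cultures for the replicates, so the p values measure the spread between these libraries only.

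Histone methylation acts by position. Methylation of H3K4 marks promoters and enhancers, that of H3K36 the bodies of transcribed genes, and that of H3K9 and H3K27 marks silenced chromatin, while arginine methylation can favour either state. SET-domain and PRMT enzymes write these marks, KDM1 enzymes remove them as flavin-dependent amine oxidases, and the other KDM families as Jumonji-domain oxygenases. The oocyte stores mRNAs of many of these enzymes, and these marks are widely rebuilt between fertilization and the activation of the embryonic genome.

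Expression is given in FPKM, fragments scaled to exon length and to the library's mapped fragments, a level per transcript length that allows genes to be compared. The untreated libraries held 26853876 to 42495116 fragments, and the depth of the injected libraries is unknown. Replicates correlated by 0.946 or more in every group except the 8-cell stage, where replicate 1 correlated with replicates 2 and 3 by 0.854 and 0.898 only (log2 values over the tested genes). That library was the highest of its group for 37 of the 50 genes (44.8% of all genes tested), and over 2-fold above both others for 16 of them (19.3% of all genes tested). All 7 oocyte markers, *GDF9*, *BMP15* and *ZP3* among them, were above 0 in every library. The cumulus marker *FSHR* was at 0 to 0.248 FPKM in all libraries. *HAS2* (0.91 and 1.31 on the log2 scale) and *CYP19A1* (0.96 and 1.02) were the 2 of 4 tested cumulus markers called by limma. Both were higher at the 4-cell and the 8-cell stage than in MII oocytes, as were 24.7% and 27.3% of all tested genes. MII replicate 3 was the highest oocyte library for *FSHR*, *TNFAIP6*, *PTX3* and *INHA*, but not for *HAS2*, *CYP19A1* and *VCAN*. *TNFAIP6* was at 19.3 FPKM there against 1.25 and 0.78 in replicates 1 and 2. *PTX3* was at 2.35 against 0 and 0.06 FPKM, and *INHA* at 1.36 against 0 and 0.03 FPKM. The summed level of the cumulus list was 26.3 to 46.9 FPKM in the MII oocytes, 30.6 to 40.9 in the 4-cell and 46.2 to 65.4 in the 8-cell stage embryos. Its part in the stage differences was not tested. All values are from whole oocytes or whole embryos, pooled in the injected libraries, in which fewer cells of a kind and less RNA per cell cannot be told apart.

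In each untreated library 4 genes held most of the family's expression, 56.9 to 72.4% of the summed FPKM, and which genes these were changed with the stage. In the injected libraries the leading 4 held 34.9 to 45.5%. In MII oocytes the KDM1 demethylases and *SUV39H2* led. *KDM1A*, or LSD1, which demethylates H3K4, had the highest mean at 89.0 ± 8.13 FPKM (SD, n = 3). *SUV39H2*, which trimethylates H3K9, followed at 64.7 ± 7.24, then *KDM1B*, the LSD2 demethylase known from growing oocytes, at 62.5 ± 13.4, and *KMT5B*, an H4K20 methyltransferase, at 42.4 ± 2.28. The ranges of *KDM1A* and *SUV39H2* did not overlap, while those of *SUV39H2* and *KDM1B* did. *SUV39H2* led in all 6 untreated embryo libraries. It alone made up 13.8 to 16.6% of the summed FPKM of the 50 genes in MII oocytes, 34.6 to 39.8% in the 4-cell and 34.3 to 45.1% in the 8-cell stage embryos. Summed over the 17 demethylases, the level was 187 to 214 FPKM in MII oocytes, 132 to 206 in 4-cell and 90.9 to 125 in 8-cell stage embryos. The 33 methyltransferases summed to 232 to 242, 362 to 450 and 442 to 568 FPKM. The demethylase sums of the 8-cell stage thus lay below those of both other stages. The methyltransferase sums of the oocytes lay below those of both embryo stages. Such sums mostly follow abundant genes. In the same order, *SUV39H2* averaged 64.7, 216 and 250 FPKM, *SETD9* 14.6, 45.7 and 68.3, and *KDM1A* 89.0, 67.4 and 27.3. Of the 25 methyltransferases tested below, 12 were higher and 13 lower than in MII oocytes in either embryo stage. The sums thus do not show a rise of that class. Of the 10 demethylases tested, 7 were lower and 3 higher in 8-cell stage embryos than in MII oocytes. At the other end, 31 to 35 of the 50 genes reached 1 FPKM in MII oocytes, 27 to 36 in the 4-cell and 28 to 37 in the 8-cell stage embryos.

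**Figure D1:**
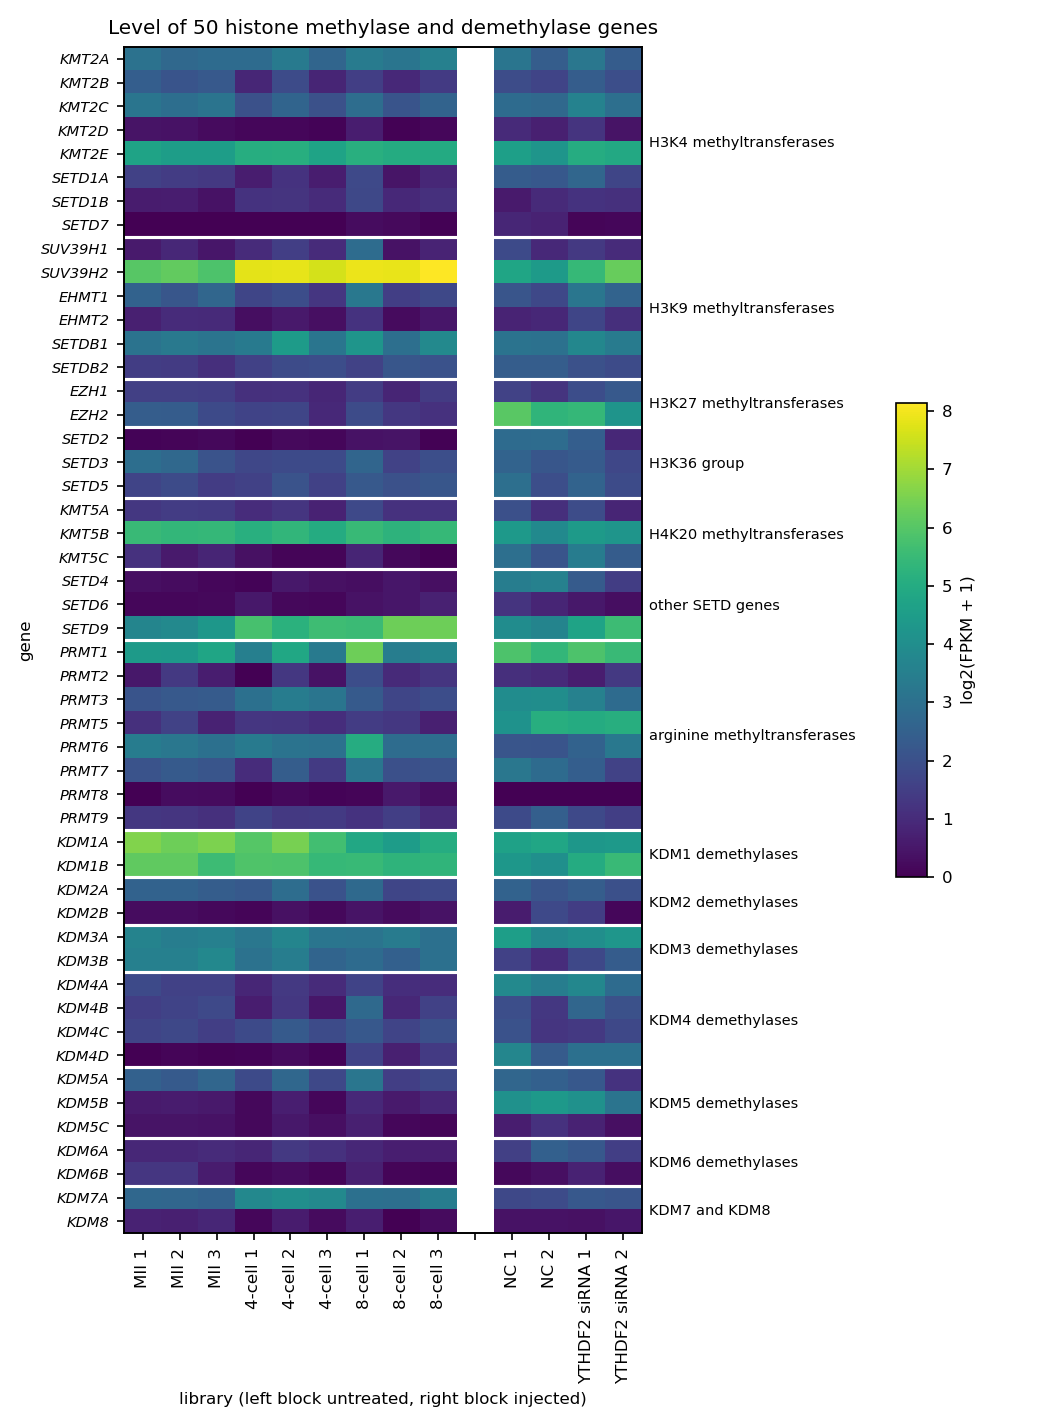
Level of each of the 50 genes (rows, grouped by the mark or family usually given for the name) in each of the 13 libraries (columns), as log2(FPKM + 1) from dark (0) to yellow (high). *SUV39H2* is the brightest row of the 6 untreated embryo libraries, while *EZH2*, *PRMT5* and *KDM5B* are bright in the injected libraries alone, and 8-cell replicate 1 stands out from its neighbours in rows such as *PRMT1* and *PRMT6*.

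Stages were compared by limma on log2(FPKM + 1) over the 9090 genes that reached a mean of 1 FPKM, 35 of the 50 among them. A gene was called at a Benjamini-Hochberg adjusted p under 0.05 over all tested genes. Over all 9090 genes the median shift from MII oocytes, on the log2 scale, was 0.29 for the 4-cell and 0.37 for the 8-cell stage, and 0.07 between the embryo stages, so changes from MII oocytes include this general shift. Since both embryo stages were set against the same 3 MII libraries, their changes are not independent of each other. With the study's cut-offs, an unadjusted p below 0.05 and a change over 2-fold, applied here to the limma p and the log2(FPKM + 1) change and not to the study's own test on counts, the rises and falls numbered 3 and 1 at the 4-cell stage (16.7% and 6.06% of all tested genes), 2 and 1 at the 8-cell stage (19.8% and 8.14%), and 0 and 2 between the embryo stages (4.55% and 4.28%).

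From MII oocytes to the 4-cell stage, 4 of the 35 genes rose and 2 fell. *SUV39H2*, *SETD9*, *KDM7A* and *PRMT3* were the genes that rose, and the H3K4 methyltransferases *KMT2B* and *KMT2C* those that fell. Among all tested genes 24.7% rose and 6.42% fell. The median change of the 35 genes was -0.23, against the 0.29 of all genes. Of the 35, 22 had groups that did not overlap (51.9% of all tested genes).

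*SUV39H2* stood at 64.0, 72.2 and 57.8 FPKM in the MII oocytes and at 224, 227 and 196 FPKM in the 4-cell stage embryos. All 4-cell values thus lay above all MII values, and the log2 fold change was 1.73 ± 0.15 (SE; limma, adjusted p = 0.000132). Its paralog *SUV39H1*, which catalyses the same reaction, was at 0.41 to 0.86 FPKM in the MII oocytes and at 1.01 to 1.87 in the 4-cell stage embryos. The groups did not overlap, but *SUV39H1* was not called. *SUV39H2* was at 83.7 to 142 times the level of *SUV39H1* in the oocytes and at 122 to 219 times in the 4-cell stage embryos. The other H3K9 methyltransferases *SETDB1* (7.55 to 8.74 against 8.02 to 21.2 FPKM), *SETDB2* and *EHMT1* were not called either, and *EHMT2* was under the filter.

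*SETD9*, a SET-domain gene whose substrate is poorly known, was at 11.96, 13.1 and 18.6 FPKM in the MII oocytes and at 53.7, 35.5 and 47.7 FPKM in the 4-cell stage embryos. The groups lay apart, with a log2 fold change of 1.59 ± 0.27 (limma, adjusted p = 0.00263). *KDM7A*, a demethylase of H3K9 and H3K27, stood at 5.59, 5.41 and 4.95 FPKM and then at 12.8, 15.3 and 13.1 FPKM, again without overlap. Its log2 fold change was 1.22 ± 0.20 (limma, adjusted p = 0.002). *SETD9* and *KDM7A* each overlap another gene in the later assembly ARS1.2, a transfer RNA gene and an uncharacterized locus. Of the 49 genes placed on a chromosome there 12 overlap another gene, *SETD2*, *SETDB1* and *KMT2E* among them, so reads of these neighbours may be among theirs. *PRMT3*, a cytoplasmic arginine methyltransferase that acts on a ribosomal protein, went from 3.29, 3.79 and 4.04 to 7.09, 9.75 and 7.94 FPKM. Every 4-cell value lay above every MII value, with a log2 fold change of 0.97 ± 0.23 (limma, adjusted p = 0.0123). The call was lost without MII replicate 1 (0.90, adjusted p = 0.0572) and when the libraries were scaled to the same sum over the shared genes (0.52, adjusted p = 0.169).

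*KMT2B*, the enzyme behind much H3K4 trimethylation in mouse oocytes, was at 4.39, 3.33 and 3.79 FPKM in the MII oocytes and at 0.84, 2.63 and 0.81 FPKM in the 4-cell stage embryos. The groups lay apart, with 4-cell replicate 2 nearest to the oocytes, and the log2 fold change was -1.07 ± 0.32 (limma, adjusted p = 0.0305). *KMT2C*, which methylates H3K4 at enhancers, stood at 7.99, 6.76 and 7.71 against 3.07, 5.20 and 3.02 FPKM, with a log2 fold change of -0.86 ± 0.27 (limma, adjusted p = 0.0393). Both calls rest on few libraries and on the filter, since with no filter on low values both were lost (limma, adjusted p = 0.0760 for *KMT2B* and 0.0725 for *KMT2C*). The changes stayed below 0, at -1.40 to -0.90 for *KMT2B* and -1.07 to -0.75 for *KMT2C* with any 1 library left out. Both were called in all 3 rescalings. The *KMT2B* call was lost without MII replicate 1 (-0.99, adjusted p = 0.107), 2 (-1.15, 0.0533) or 3 (-1.07, 0.0792) and without 4-cell replicate 1 (-0.91, 0.103) or 3 (-0.90, 0.104). The *KMT2C* call was lost without MII replicate 1 (-0.82, adjusted p = 0.123), 2 (-0.92, 0.0638) or 3 (-0.84, 0.104), without 4-cell replicate 1 (-0.76, 0.117) or 3 (-0.75, 0.121), and without 8-cell replicate 3 (-0.86, 0.0576). With 8-cell replicate 1 left out of the shared estimate of spread, 7 genes fell instead of 2 (10.2% of all genes tested in that fit), adding *SETD3* (-0.78, adjusted p = 0.0369), *EHMT1* (-0.84, 0.0248), *KDM4B* (-0.81, 0.0428), *EZH2* (-0.77, 0.0494) and *KDM4A* (-0.59, 0.0489). Rescaling brought the median change of all genes to 0.06 with median ratios and 0.04 with quantiles. The same sum over the shared genes turned it to -0.13, so falls under that scaling include a general shift downward. All 3 rescalings gave more falls among all genes and among the 35. There were 6 with median ratios (10.1% of all tested genes), 9 with quantiles (11.4%) and 10 with the same sum over the shared genes (13.2%), against 4, 4 and 3 rises (11.9%, 12.6% and 9.59%).

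**Figure D2:**
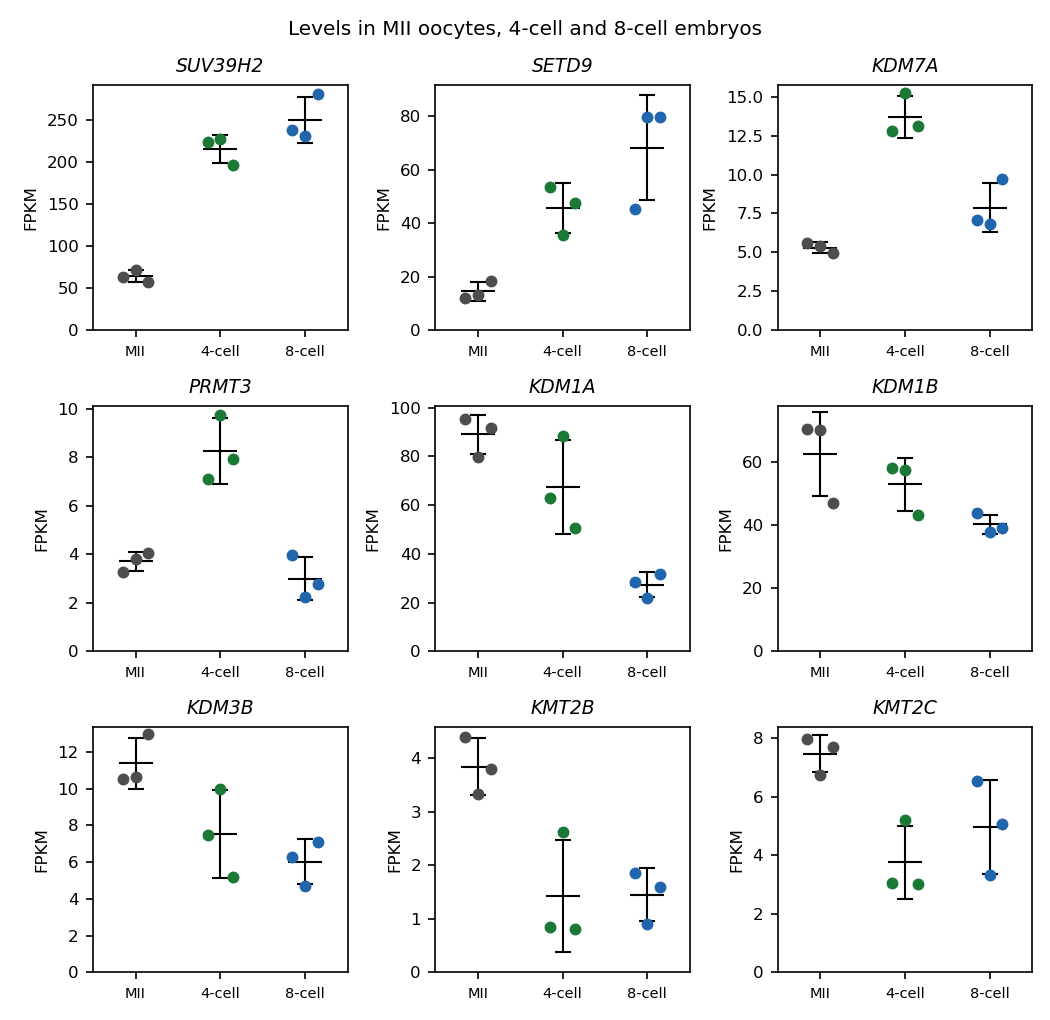
FPKM of the 9 genes called at the 4-cell or 8-cell stage, with 1 point per library, a bar at the mean and error bars of 1 SD (n = 3), on axes from 0. *SUV39H2* and *SETD9* are higher in every embryo library than in every MII library, *KDM7A* and *PRMT3* peak at the 4-cell stage, and *KDM1A* is at 21.7 to 31.8 FPKM in the 8-cell libraries against 79.9 to 95.5 in the MII libraries.

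From MII oocytes to the 8-cell stage, *SUV39H2* and *SETD9* rose, and the demethylases *KDM1A*, *KDM1B* and *KDM3B* and the methyltransferase *KMT2B* fell. These were 2 rises and 4 falls among the 35 genes, beside 27.3% and 10.0% of all tested genes. By kind, 3 of the 10 tested demethylases and 1 of the 25 tested methyltransferases fell, a difference that was not tested. The median change was -0.02 over the 35 genes, below the 0.37 of all genes, and 15 of the 35 had groups without overlap (50.1% of all tested genes).

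*SUV39H2* was at 238, 231 and 281 FPKM in the 8-cell stage embryos, above every MII and every 4-cell value. Against the oocytes its log2 fold change was 1.93 ± 0.15 (limma, adjusted p = 4.31e-05), and between the embryo stages it was 0.21 ± 0.15 and not called. *SETD9* was at 45.5, 79.7 and 79.7 FPKM, with a log2 fold change from the oocytes of 2.13 ± 0.27 (limma, adjusted p = 0.000447). The 2 replicates other than replicate 1 lay above all 4-cell values, and replicate 1 lay among them. For *SETD9* and *SUV39H2* the rises at both stages were called in all 19 alternative settings.

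*KDM1A* was at 95.5, 79.9 and 91.6 FPKM in the MII oocytes, at 63.0, 88.6 and 50.6 FPKM in the 4-cell and at 28.4, 21.7 and 31.8 FPKM in the 8-cell stage embryos. The 4-cell values overlapped those of the oocytes, while all 8-cell values lay below both. The 4-cell change of -0.43 was not called (limma, adjusted p = 0.188), but it was with quantile scaling (-0.87, 0.0244) and with the same sum over the shared genes (-0.96, 0.0249), as was that of *KDM1B* (-0.68, 0.0323, and -0.76, 0.0344). From the oocytes to the 8-cell stage it changed by -1.68 ± 0.23 on the log2 scale (limma, adjusted p = 0.000600), called in all 19 alternative settings. *KDM1B* stood at 70.3, 70.2 and 47.0 FPKM, then at 58.1, 57.4 and 43.1 FPKM, and at 43.7, 37.9 and 39.2 FPKM at the 8-cell stage. Its 8-cell values lay just below the lowest oocyte, with a log2 fold change of -0.60 ± 0.21 (limma, adjusted p = 0.0455). *KDM1A* was at 1.14 to 1.95 times the level of *KDM1B* in the oocytes, at 1.08 to 1.54 times in the 4-cell and at 0.573 to 0.810 times in the 8-cell stage embryos, so the order of the pair was turned in all 3 of the last.

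*KDM3B*, a demethylase of H3K9, stood at 10.6, 10.6 and 13.0 FPKM in the oocytes and at 6.26, 4.68 and 7.10 FPKM in the 8-cell stage embryos, without overlap. The log2 fold change was -0.83 ± 0.26 (limma, adjusted p = 0.0300). Its paralog *KDM3A* was at 10.0 to 11.4 FPKM and 6.997 to 9.36 FPKM and was not called. *KMT2B* was at 1.86, 0.90 and 1.59 FPKM at the 8-cell stage, all below the oocytes, with a log2 fold change of -0.996 ± 0.32 (limma, adjusted p = 0.0342). The calls of these 3 smaller falls depend on single libraries, while the changes stayed below 0. With any 1 library left out the log2 fold change was -0.79 to -0.50 for *KDM1B*, -0.94 to -0.69 for *KDM3B* and -1.12 to -0.82 for *KMT2B*. Without MII replicate 1 the adjusted p was 0.160 for *KDM1B* (-0.50), 0.0706 for *KDM3B* (-0.88) and 0.114 for *KMT2B* (-0.92). Without MII replicate 2 it was 0.131 (-0.50), 0.0542 (-0.87) and 0.0568 (-1.07), and without 8-cell replicate 2 it was 0.101 (-0.56), 0.0856 (-0.69) and 0.0948 (-0.82). *KDM3B* and *KMT2B* were also lost without MII replicate 3 (-0.74, adjusted p = 0.0996, and -0.996, 0.0846), and *KDM1B* and *KMT2B* without 8-cell replicate 3 (-0.58, 0.112, and -1.05, 0.0694). *KDM1B* was lost too without 4-cell replicate 1 (-0.60, adjusted p = 0.0580) or 2 (-0.60, 0.0562) and with the 8-cell and MII libraries fitted alone (0.0656). With no filter on low values *KDM1B* (adjusted p = 0.0653) and *KMT2B* (0.0765) were lost as well. Without 8-cell replicate 1, 8 genes fell and 3 rose (13.7% and 28.6% of all genes tested in that fit), adding the falls of *EHMT1* (-0.84, adjusted p = 0.0362), *EZH2* (-0.96, 0.0316), *SETD1A* (-0.77, 0.0359) and *SETD3* (-0.81, 0.0486) and the rise of *SETDB2* (0.77, 0.0260). Rescaling gave 2 rises each time, beside 8 falls with median ratios, 10 with quantiles and 7 with the same sum, where 15.1%, 15.7% and 14.9% of all tested genes rose and 14.7%, 17.1% and 16.1% fell.

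**Figure D3:**
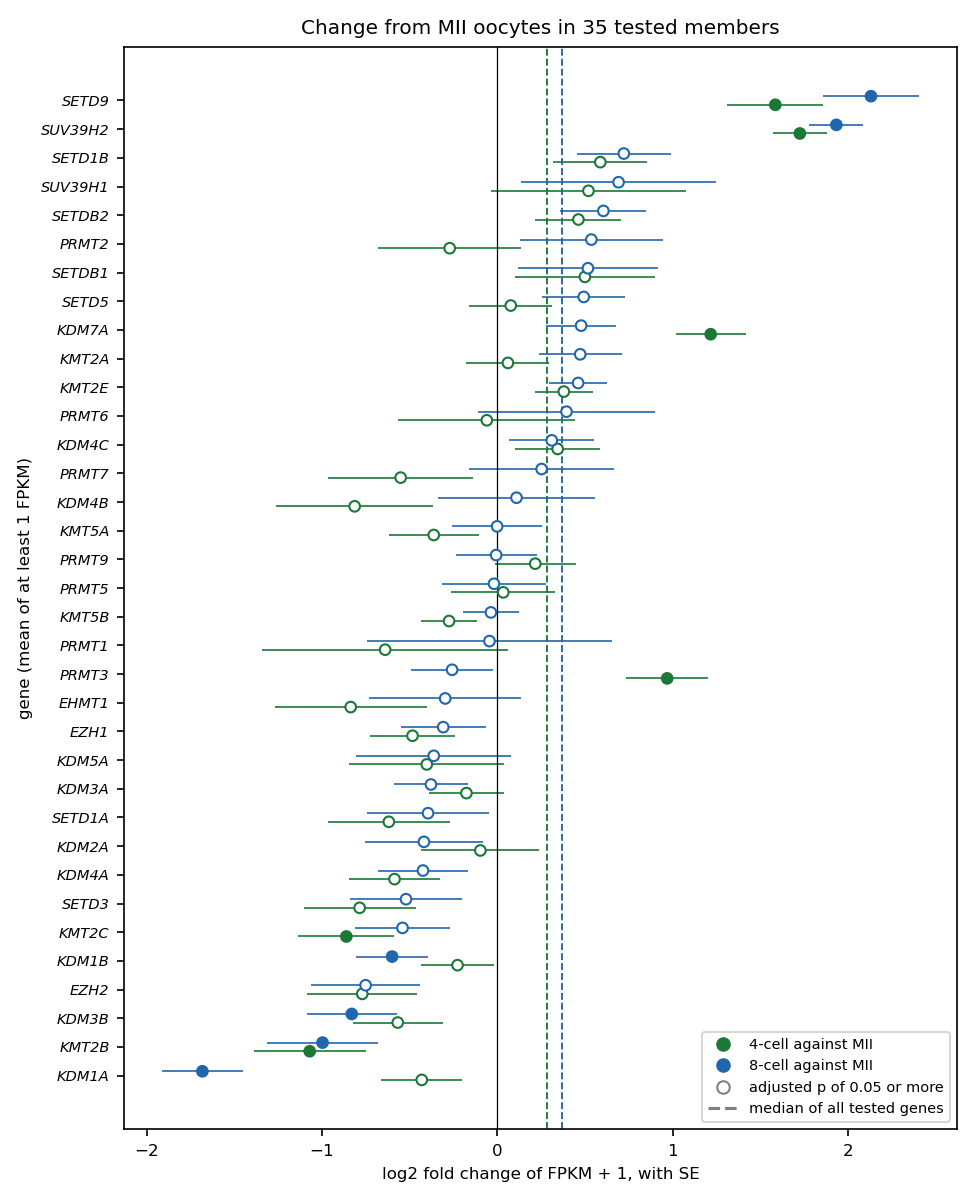
Log2 fold change of FPKM + 1 from MII oocytes for the 35 tested genes at the 4-cell (green) and 8-cell stage (blue), with SE bars. Filled points passed an adjusted p of 0.05, and dashed lines give the median of all tested genes at each stage, 0.29 and 0.37. Most of the 35 genes lie left of these lines, and *SETD9* and *SUV39H2* lie far to the right at both stages.

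Between the 4-cell and the 8-cell stage no gene of the 35 rose and *KDM1A* and *PRMT3* fell, while 3.06% of all tested genes rose and 5.24% fell. At an unadjusted p under 0.05 by the same limma fit there were again 0 rises, and 3 falls (10.8% and 13.5% of all tested genes). Groups lay apart for 4 of the 35 (28.2% of all tested genes). *KDM1A* changed by -1.25 ± 0.23 on the log2 scale (limma, adjusted p = 0.0144). *PRMT3* was at 3.97, 2.24 and 2.77 FPKM in the 8-cell stage embryos, below all 4-cell values and about the level of the oocytes (3.29 to 4.04 FPKM), with a log2 fold change of -1.23 ± 0.23 (limma, adjusted p = 0.0172). *KDM7A* was at 7.10, 6.86 and 9.69 FPKM, between the other stages and without overlap with either, but the change of -0.74 ± 0.20 from the 4-cell stage missed the threshold (limma, adjusted p = 0.0522). It passed with limma voom on the fragments (-0.81, adjusted p = 0.0327), a filter at a mean of 5 FPKM (-0.74, 0.0447) and a pseudocount of 5 (-0.54, 0.0465). The *KDM1A* call was lost without 4-cell replicate 1 (-1.28, adjusted p = 0.0529) and with the embryo stages fitted alone (0.0508). That of *PRMT3* was lost without 4-cell replicate 3 (-1.25, adjusted p = 0.0589) or 8-cell replicate 3 (-1.20, 0.0563), and with the embryo stages fitted alone (0.0586).

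Of the 15 genes under a mean of 1 FPKM, *KDM4D* and *KDM6B* had the clearest patterns, picked out after their values were seen. *KDM4D*, a demethylase of H3K9, was near 0 before the 8-cell stage. It had 1, 4 and 2 fragments in the MII oocytes, 2, 7 and 2 in the 4-cell and 87, 27 and 73 in the 8-cell stage embryos, or 0.02 to 0.17 FPKM in the first 6 libraries and 2.13, 0.65 and 1.60 FPKM in the last 3. A count of 3 fragments, taken as the lowest to be read as expression, corresponded to 0.0470 to 0.0743 FPKM of *KDM4D*, and this floor covers counting error only. With no filter on low values, *KDM4D* rose from the oocytes to the 8-cell stage (limma, adjusted p = 0.00559), as did 14.0% of the 17918 genes in that fit, and from the 4-cell to the 8-cell stage (limma, adjusted p = 0.0304), as did 1.76%. *KDM6B*, a demethylase of H3K27, went the other way, from 1.45, 1.47 and 0.53 FPKM to 0.10, 0.22 and 0.07 FPKM at the 4-cell stage. It was at 0.65, 0.08 and 0.06 FPKM at the 8-cell stage, where replicate 1 alone was above the 4-cell values and within the range of the oocytes. Its fall to the 4-cell stage was called in the fit without the filter (-0.90, adjusted p = 0.0386, where 3.48% of genes fell). *SETD7*, an H3K4 monomethyltransferase, had 2, 0 and 0 fragments in the oocytes, 2, 1 and 1 in the 4-cell and 24, 20 and 5 in the 8-cell stage embryos. The 8-cell values lay above all others, and it rose in the unfiltered fit against the oocytes (limma, adjusted p = 0.0474). The other 12, from *SETD2* and *SETD4* to *KDM5B*, *KDM6A* and *PRMT8*, were between 0 and 1.53 FPKM in all 9 libraries and were not called.

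Among genes called at no stage, 8-cell replicate 1 set the spread of several. *PRMT1*, the main arginine methyltransferase, was at 79.4 FPKM there and at 9.85 and 11.8 FPKM in replicates 2 and 3. *PRMT6*, which methylates H3R2, was at 32.1 against 6.36 and 6.53 FPKM, *SUV39H1* at 6.29 against 0.31 and 0.75 FPKM, and *KDM5A*, a demethylase of H3K4, at 8.08 against 1.82 and 2.40 FPKM. In the 4-cell group replicate 2 was the highest library for 40 of the 50 genes (52.9% of all tested genes) and over 2-fold above both others for 13 (9.65%). In the oocytes no library was over 2-fold above both others for more than 2 of the 50 genes, although replicate 2 was so for 9.69% of all tested genes. *KMT5B* was abundant at all stages and not called, with 40.6 to 45.0 FPKM in the oocytes, 31.0 to 39.9 in the 4-cell and 37.6 to 43.6 in the 8-cell stage embryos, but it fell at the 4-cell stage with quantile scaling (-0.70, adjusted p = 0.0187) and with the same sum over the shared genes (-0.80, 0.0130). *EZH2*, the main H3K27 methyltransferase, was low at all stages, with 2.54 to 4.27 FPKM in the oocytes, 0.91 to 2.25 in the 4-cell and 1.24 to 2.65 in the 8-cell stage embryos. It was called lower than in the oocytes under each rescaling, at the 4-cell stage with median ratios (-0.99, adjusted p = 0.0285), quantiles (-0.92, 0.0311) and the same sum (-1.16, 0.0284) and at the 8-cell stage likewise (-1.03, 0.0184, -1.06, 0.0128, and -1.07, 0.0294). *EZH1* was called lower at the 4-cell stage with the same sum (-0.81, adjusted p = 0.0434).

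Partners of these enzymes were described from lists of 27 complex members, of which 22 were tested at the stages. At the 4-cell stage 8 of the 22 rose and 1 fell (24.7% and 6.42% of all tested genes), and at the 8-cell stage 6 rose and 2 fell against the oocytes (27.3% and 10.0%), while 0 rose and 5 fell between the embryo stages (3.06% and 5.24%). In the Polycomb complex PRC2, where *EZH1* and *EZH2* are the catalytic subunits and were not called without rescaling or a library left out, 5 of 8 partners rose at the 4-cell stage. The core subunits *SUZ12* (2.22 ± 0.22) and *EED* (2.03 ± 0.20) changed furthest on the log2 scale, followed by *AEBP2* (0.93 ± 0.30). At the 8-cell stage *SUZ12* and *EED* were still above the oocytes (2.08 and 1.13), and the accessory subunit *JARID2* was below them (-1.16). *RBBP4* (-1.23), *MTF2* (-1.02) and *EED* (-0.90) fell between the embryo stages.

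In the COMPASS complexes, which carry the H3K4 methyltransferases, 1 of 9 partners rose and 1 fell at each embryo stage against the oocytes, beside 24.7% and 6.42% of all tested genes at the 4-cell and 27.3% and 10.0% at the 8-cell stage. *DPY30*, a core subunit, fell from the oocytes by 1.83 on the log2 scale at the 4-cell and by 3.29 at the 8-cell stage, and by 1.46 between the embryo stages, from 119, 105 and 89.2 FPKM in the oocytes to 34.5, 21.3 and 31.2 FPKM and to 6.74, 15.6 and 8.56 FPKM. The 3 stages did not overlap for *DPY30*. *WDR82*, the subunit particular to the SETD1 complexes, rose by 1.41 and 1.29 from the oocytes to the 2 stages. Among LSD1 partners the deacetylase *HDAC2* rose at both stages (1.09 ± 0.17 and 1.34 ± 0.17), while *KDM1A* itself fell at the 8-cell stage. *RCOR3* and *PHF21A* rose at the 8-cell stage (0.87 each). Of the 5 methyl-lysine readers, *CBX3*, a heterochromatin protein that binds methylated H3K9, rose by 2.87 ± 0.26 and 2.76 ± 0.26, from 8.57 to 11.3 FPKM in the oocytes to 50.9 to 104 FPKM at the 8-cell stage. The PRMT5 cofactor *CLNS1A* rose by 0.49 at the 4-cell stage and fell by 0.73 between the embryo stages. Of 13 related enzymes outside the naming rule that the tables list, 8 were tested. Of these *NSD1* rose (0.79) and *SMYD3* fell (-0.96) at the 8-cell stage against the oocytes, beside 27.3% and 10.0% of all tested genes. *SMYD3* fell by 1.56 between the embryo stages, where 5.24% of all tested genes fell.

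Knockdown was made with a mixture of 2 siRNAs against *YTHDF2*, the reader of N6-methyladenosine that directs marked mRNAs to decay. The antisense strands, which guide the silencing complex, are shown because their seeds differ, and bases 2 to 8, the seed, are in capitals:
s28148: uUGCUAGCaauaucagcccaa
s28147: uGGUCUAUaguauucaugcca
*YTHDF2* stood at 112 and 159 FPKM in the NC embryos and at 8.07 and 4.47 FPKM in the knockdown embryos, with a log2 fold change of -4.25 ± 0.43. In the untreated 8-cell stage embryos it was at 10.8 to 16.7 FPKM. The injected libraries were normalized apart from the untreated ones and were fitted on their own with limma over 11004 genes, 42 of the 50 among them. The genes left out for a low mean were *KDM5C*, *KDM6B*, *KDM8*, *KMT2D*, *PRMT8*, *SETD1B*, *SETD6* and *SETD7*. Among them *SETD7* was at 0.84 and 0.70 FPKM in the NC and at 0.08 and 0.10 in the knockdown embryos. *SETD6* was at 1.33 and 0.78 against 0.43 and 0.23 FPKM. *SETD1B* went the other way, with 0.50 and 0.98 against 1.31 and 1.19 FPKM. The others overlapped or were at 0, and these low genes were not part of the main test. The median log2 fold change of all genes was 0.0054.

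*SETD4*, a SET-domain lysine methyltransferase, was the only gene of the 42 called after *YTHDF2* knockdown, and it fell, while none rose. Among all tested genes 2.06% rose and 5.92% fell. At an unadjusted p under 0.05 by limma, 3 of the 42 were higher and 3 lower (11.9% and 17.6% of all tested genes). *SETD4* was at 9.91 and 11.01 FPKM in the NC embryos and at 4.03 and 1.79 FPKM in the knockdown embryos. The groups lay apart, with a log2 fold change of -1.61 ± 0.45 (limma, adjusted p = 0.0418). This call was lost without NC replicate 1 (-1.68), NC replicate 2 (-1.54) or knockdown replicate 2 (-1.19). Without the filter on low values *SETD4* changed by -1.61 (limma, adjusted p = 0.186). In that fit 0 of 20357 genes were called, and not even *YTHDF2* was, so it cannot show a loss particular to *SETD4*. There 3731 genes were at an unadjusted p under 0.05 in limma, and 903 were higher and 1518 lower by the study's cut-offs. The *SETD4* call was also lost in limma with median-ratio (-1.62, adjusted p = 0.0565) or quantile scaling (-1.57, 0.0608) and with library sums taken without the 20 largest genes (-1.48, 0.0597). Of the 42, 23 had groups that did not overlap, beside 61.0% of all tested genes. The median change of the 42 was -0.04, and it became 0.28 without NC replicate 1, -0.16 without NC replicate 2, -0.19 without knockdown replicate 1 and 0.25 without knockdown replicate 2, where the medians of all genes were 0.14, -0.06, -0.09 and 0.04.

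The study's cut-offs, again applied to the limma fit, took 3 genes as higher and 3 as lower, where they took 9.48% and 15.3% of all tested genes. Of these 6 genes only *SETD4* passed the adjusted threshold. *SETD2*, which trimethylates H3K36 and overlaps an uncharacterized locus in ARS1.2, was at 6.18 and 6.29 FPKM in the NC embryos and at 4.39 and 0.86 FPKM in the knockdown embryos, a log2 fold change of -1.19 ± 0.50 (limma, adjusted p = 0.135). *PRMT7*, which monomethylates arginine, was at 8.41 and 6.24 against 4.42 and 2.07 FPKM (-1.02 ± 0.45, limma, adjusted p = 0.150). For both, knockdown replicate 2 was the lowest library, and the groups did not overlap. *SUV39H2* was at 26.5 and 20.7 FPKM in the NC and at 42.5 and 75.2 FPKM in the knockdown embryos (1.24 ± 0.43, limma, adjusted p = 0.0828). *SETD9* was at 14.4 and 11.8 against 25.2 and 46.6 FPKM (1.33 ± 0.44, limma, adjusted p = 0.0718), and *KDM1B* at 18.7 and 15.5 against 31.2 and 44.3 FPKM (1.08 ± 0.42, limma, adjusted p = 0.108). Both knockdown values lay above both NC values for these 3 genes, and knockdown replicate 2 was the highest library each time. Without knockdown replicate 1, *SUV39H2* (1.64, adjusted p = 0.0175), *SETD9* (1.76, 0.0122), *SETD2* (-1.96, 0.0125) and *EZH2* (-1.47, 0.0364) were called beside *SETD4*, or 2 higher and 3 lower genes where 4.37% and 10.3% of all genes tested in that fit were called.

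After knockdown the study reported higher *KDM3B*, *KDM4B* and *KDM1B* (LSD2) and lower *KDM5B* and *KDM1A* (LSD1). Its differential test ran on counts with an unadjusted p. Here each of these genes changed in the reported direction, and *KDM1B* met the study's cut-offs, as given above. None passed the adjusted threshold of limma on FPKM with 2 libraries a group. *KDM1A* was at 23.99 and 26.9 FPKM in the NC and at 18.9 and 20.4 FPKM in the knockdown embryos, without overlap, a log2 fold change of -0.36 ± 0.41 (limma, adjusted p = 0.575). *KDM5B*, which removes H3K4 trimethylation, was at 16.5 and 20.3 against 16.3 and 7.72 FPKM (-0.66 ± 0.45, limma, adjusted p = 0.342), with knockdown replicate 1 just below the lower NC value. *KDM3B* was at 2.00 and 1.05 against 2.42 and 4.18 FPKM (0.76 ± 0.44, limma, adjusted p = 0.254). *KDM4B*, a demethylase of H3K9, was at 2.90 and 1.49 against 5.4 and 3.02 FPKM (0.70 ± 0.45, limma, adjusted p = 0.305). Since *KDM1A* was lower and *KDM1B* higher, the ratio of *KDM1A* to *KDM1B* was 1.29 and 1.73 in the NC embryos and 0.605 and 0.460 in the knockdown embryos.

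**Figure D4:**
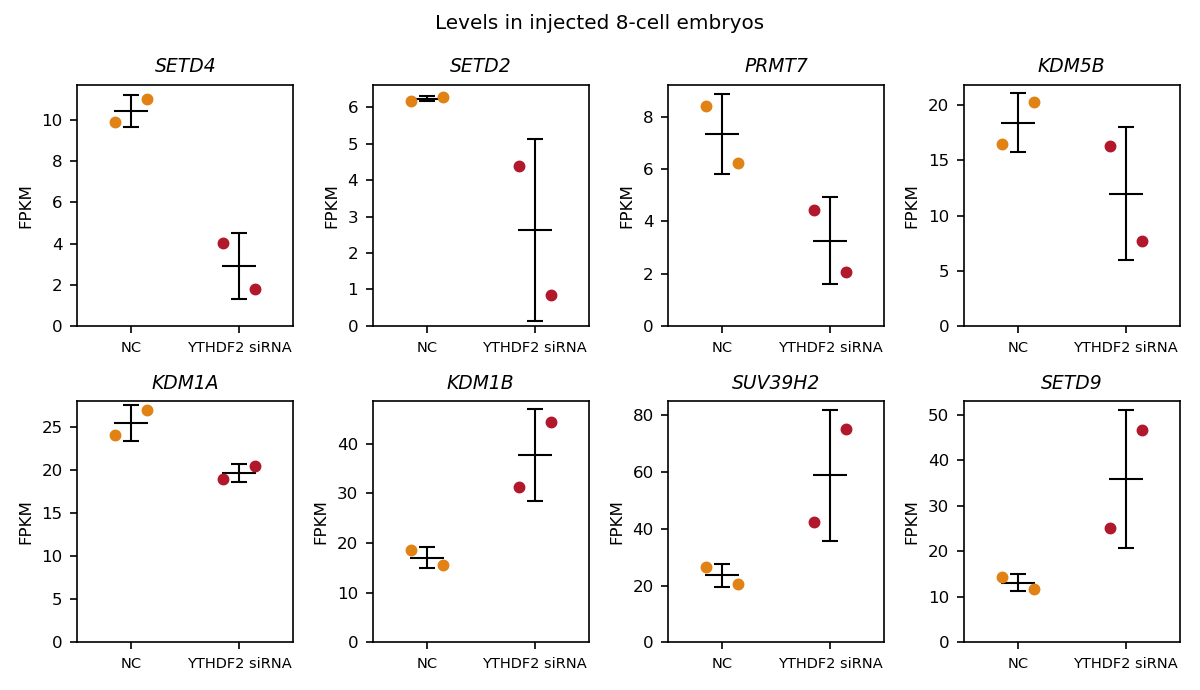
FPKM of 8 genes in the injected 8-cell stage embryos, with 1 point per library, a bar at the mean and error bars of 1 SD (n = 2), on axes from 0. *SETD4* is at 9.91 and 11.01 FPKM in NC embryos and at 4.03 and 1.79 after *YTHDF2* siRNA, and the 2 knockdown libraries lie far apart for *SETD2*, *SUV39H2* and *SETD9*.

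Within both injected groups replicate 1 had the higher values for most of the 50 genes. Knockdown replicate 1 was above replicate 2 for 36 of the 50 (58.4% of all tested genes) and more than 2-fold above it for 16 (16.2%), and NC replicate 1 was above replicate 2 for 35 (62.8%) and more than 2-fold above it for 6 (15.3%). Oocyte and cumulus markers also differed in level between the injected groups, though none was called. The summed level of the oocyte markers was 379 and 240 FPKM in the NC embryos and 496 and 738 FPKM in the knockdown embryos, and all 6 that were tested were higher at an unadjusted p under 0.05, by a median of 1.17 on the log2 scale. The cumulus markers summed to 30.7 and 26.4 FPKM in the NC and to 62.4 and 48.5 FPKM in the knockdown embryos. That sum rests on the 3 of 8 that were tested, *HAS2* (1.0007) and *TNFAIP6* (1.09), both at an unadjusted p under 0.05, and *VCAN* (0.71). Of the others *FSHR* and *INHA* were at 0 in all 4 libraries, *AMHR2* was at 1.1 and 0.87 against 0.86 and 0.52 FPKM, and *PTX3* and *CYP19A1* were at 0 to 0.37 FPKM. The part of these markers' differences in the values of *SUV39H2*, *SETD9* and *KDM1B* was not tested. Of the 27 complex partners 25 were tested and 0 were called, with 2 higher and 5 lower at an unadjusted p under 0.05 in the same limma fit, beside 11.9% and 17.6% of all tested genes. The 2 higher were the COMPASS core subunit *WDR5* (0.99) and *JARID2* (0.95), with adjusted p of 0.137 and 0.143. The 5 lower were the deacetylases *HDAC1* (-1.28) and *HDAC2* (-1.34), the PRMT5 cofactors *CLNS1A* (-1.39) and *WDR77* (-1.14), and *WDR82* (-1.16), with adjusted p from 0.0525 to 0.110. Sperm RNA was low, the highest being *TNP1* at 8.99 FPKM in NC replicate 1.

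Untreated and NC-injected embryos share the 8-cell label, so their levels were set side by side. They come from different experiments with separate normalization, and no test was made. *EZH2* was at 65.2 and 38.9 FPKM in the NC embryos, the highest of the 50 genes in replicate 1 and next to *PRMT1* (41.0 FPKM) in replicate 2, against 2.65, 1.48 and 1.24 FPKM in the untreated embryos. *PRMT5*, the main enzyme of symmetric arginine dimethylation, was at 16.6 and 33.5 against 0.63 to 1.73 FPKM, *KDM5B* at 16.5 and 20.3 against 0.50 to 0.93 FPKM, *SETD4* at 9.91 and 11.01 against 0.24 to 0.39 FPKM, and *SETD2* at 6.18 and 6.29 against 0.04 to 0.34 FPKM. *SUV39H2* went the other way, with 26.5 and 20.7 FPKM in the NC embryos against 231 to 281 FPKM, as did *SETD9*, with 14.4 and 11.8 against 45.5 to 79.7 FPKM. Of the 43 genes that reached a mean of 1 FPKM in either group, the NC range lay above that of the untreated embryos for 17 and below it for 9, or 39.5% and 20.9%, beside 36.8% and 32.3% of all 11479 such genes. Of the 43, 44.2% differed by over 2-fold on the scale of log2(FPKM + 1), beside 57.2% of all. *KDM1A* was nearly equal, with means of 25.5 and 27.3 FPKM.

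**Figure D5:**
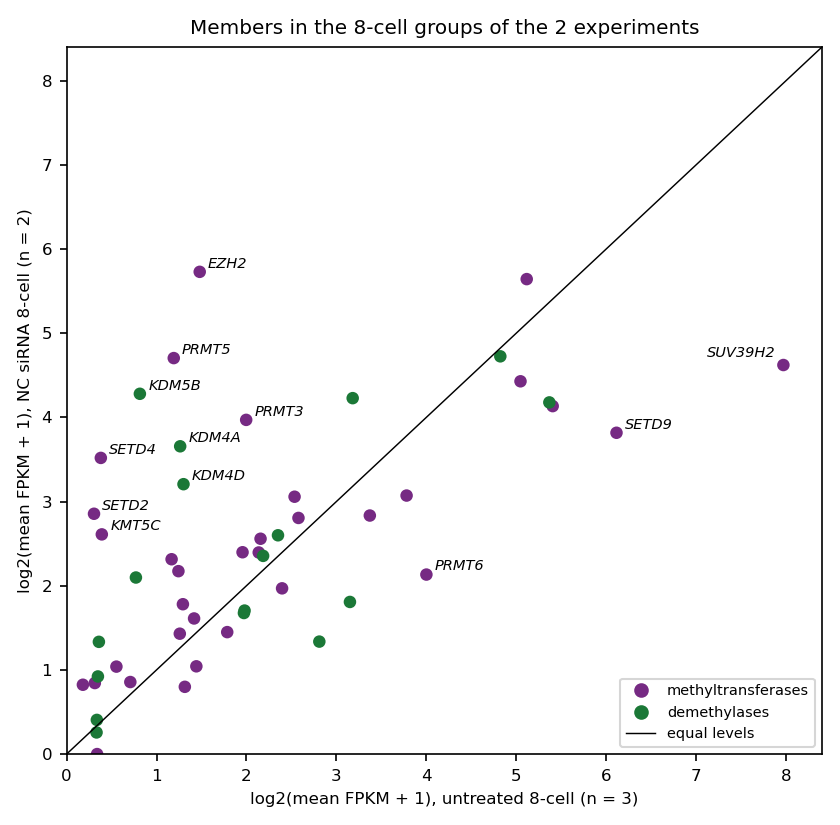
Mean level of the 50 genes, as log2(FPKM + 1), in untreated 8-cell stage embryos (x axis, n = 3) and in NC siRNA embryos (y axis, n = 2), with methyltransferases in purple, demethylases in green and a line of equal levels. *EZH2*, *PRMT5*, *KDM5B*, *SETD4* and *SETD2* lie well above the line and *SUV39H2* and *SETD9* well below it.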

How the data were processed

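Values of 13 Smart-seq2 libraries (poly(A) RNA, no strand) were analysed. HISAT2 alignment to assembly ARS1, restricted to unique hits, and HTSeq counting were done by the authors, who deposited FPKM per gene and library, normalized library by library. No value column was unused (0). Fragments were recovered from the FPKM steps of the untreated libraries for 17917 of 17918 genes above 0, within 0.02 of a whole fragment. Genes listed for MII held 64.9 to 66.3% of MII totals and 94.7 to 97.0% of embryo totals. Injected values are rounded to 2 decimals, and their depth is unknown. Genes reaching a mean of 1 FPKM were fitted on log2(FPKM + 1), a scale that understates changes of low genes, with limma 3.58.1 (lmFit, eBayes with trend) in R 4.3.3. The 9 untreated libraries shared 1 fit and the 4 injected libraries another, both tested on simulated data. Python 3.11.15 with pandas 2.3.3 did the rest. Values are given in every library for genes at an adjusted p under 0.05 and for *KDM1A*, *KDM1B*, *KDM3B*, *KDM4B* and *KDM5B* in the knockdown. Partners called are named up to 3 per list. Genes named outside this rule were chosen after their values were seen. The genes, groups and lists were chosen with earlier results of these data known. All 50 symbols matched a reference gene table of the later assembly ARS1.2, so no coordinates are printed. Alternatives were other pseudocounts, filters, scalings, call rules, a replicate block, each library left out, 2 stages only, and limma voom on the fragments.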

Additional observations from a re-analysis of the deposited data

How the results depend on the processing

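The 24 changes of the called genes, and of those given in full for the knockdown, turned direction in none of the alternatives run, with 341 values on the same side of the threshold, 52 that lost a call and 6 that gained one. At the 4-cell stage against MII oocytes, falls numbered 2. There was 1 with no filter (*KDM6B*, with *KMT2B* and *KMT2C* lost, where 3.48% of all genes fell), a mean of at least 5 FPKM (7.13%) or the study's cut-offs (6.06%). There were 5 with 2 stages only (10.2% of all genes in that fit) and 6, 9 and 10 with median-ratio, quantile and same-sum scaling (10.1%, 11.4% and 13.2%). The replicate block gave 0 (5.12%), and 1 library left out gave 0 to 7 (3.37% to 10.2%). At the 8-cell stage, rises numbered 2, and 5 with no filter (14.0% of all genes) or limma voom (28.4%). Falls numbered 4, and 2 with no filter (5.63%), 8, 10 and 7 with these scalings (14.7%, 17.1% and 16.1%), 2 with the replicate block (8.86%) and 1 with the study's cut-offs (8.14%). With 1 library left out they numbered 1 to 8 (6.92% to 13.7%). Between the embryo stages there were 0 rises, and 1 with no filter (1.76% of all genes). Falls numbered 2, and 0 with the replicate block (1.94%) or 2 stages only (1.95%). They numbered 3 with limma voom (5.09%) or a pseudocount of 5 (5.34%), *KDM7A* being the third, and 1 to 2 with 1 library left out (1.61% to 4.59%). After knockdown there were 0 rises, 1 at a mean of 5 FPKM (4.27% of all genes) and 3 by the study's cut-offs (9.48%). There was 1 fall, and 3 by the study's cut-offs (15.3%). No fall was called with no filter, where no gene at all was called. The same held with median-ratio (3.20%) or quantile scaling (1.91%), the replicate block (3.48%) or a sum without the 20 largest genes (4.14%). With 1 library left out the calls also changed, as described for *SETD4* above. The causes were not tested, and the alternatives were not run for the partner genes. Replicate numbers did not pair the untreated libraries, whose same-number deviations correlated by -0.508 to 0.201. In the injected libraries they correlated by -0.152, so a block with crossed numbers, chosen after seeing the data, was added and gave 2 rises (700 higher and 1407 lower genes in all, against 78 and 383 with the block as numbered). A fit that leaves 1 library in an injected group assumes that it varies like the other group. The unknown depth of the injected libraries limits what can be said of their low genes.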
